A study of Mus musculus with 14 samples.

Results

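The EGR, NR4A and IER early genes studied here are Egr1, Egr2, Egr3, Nr4a1, Nr4a2, Nr4a3, Ier2, Ier3, Ier5 and Srf, taken from whole mouse lung RNA on 14 Affymetrix arrays. They were chosen by gene symbol: 22 probe sets, of 34958 with a single symbol, carry only these 10 symbols. Each gene was read on its probe set with the highest mean over the arrays, and the others served as a check. All 10 were among the 11360 genes tested, of 18194 with a probe set, and each exceeded the array median on all 14 arrays.

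The series compared lungs after ventilation at a high tidal volume, after pre-B-cell colony-enhancing factor (PBEF), and after both. PBEF is the secreted form of Nampt, an enzyme that salvages NAD. The groups were VILI PBEF+/- (3 arrays, ventilated for 4 hours, mice aged 8 to 12 weeks), VALI (4 arrays, ventilated for 4 hours, aged 18 to 22 weeks), PBEF+/- (3 arrays, not ventilated, aged 18 to 22 weeks) and Control (4 arrays, given PBS, aged 18 to 22 weeks). The sample labels give 40 ml/kg for the tidal volume and the series text gives 30 ml/kg. That text also speaks of recombinant human PBEF given intratracheally. Whether PBEF+/- names a genotype or that protein is not stated, and the sample descriptions call every lung that of a control animal. Ventilation of lungs labelled PBEF+/- was studied only in the younger mice, so age and group cannot be told apart in any comparison with VILI PBEF+/-. Nothing in the labels says that each array is a separate animal, and p-values therefore measure the spread between these samples. Values are log2 expression values. The number of arrays limits their precision, and a level is set only against the same probe set on other arrays.

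Immediate early genes are transcribed soon after a stimulus from factors already present in the cell, before new protein is made. Serum response factor (SRF) binds the CArG box with ETS or MRTF partners and switches on many of them, the EGR zinc finger factors included. The NR4A genes encode nuclear receptors that act without a known natural hormone and are classic targets of cAMP and the factor CREB. IER2 and IER5 are related nuclear regulators, and IER3 acts in stress and survival signalling. In the lung, EGR1 is known as an early responder to stretch, hypoxia and injury.

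Promoter sequences from RefSeq (GRCm38.p6) were searched for the sites of these factors. An entry was used for 7 of the 10 genes, and the 250 bases before each start site were read on both strands. Below are the 30-base stretches of the gene strand that hold the matches, with the CArG box in capitals for Srf and for start site 2 of 5 of Egr2, and TGACG or its reverse complement, the core of the CREB site, in capitals for the NR4A genes.
Srf, chr17:46556215-46556244, minus strand: CCATATAAGGagcggcctcgCCATAAAAGG
Egr2, chr10:67537484-67537513, plus strand: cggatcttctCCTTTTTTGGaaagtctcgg
Nr4a1, chr15:101266611-101266640, plus strand: tgCGTCAatggaaccccgcgtgCGTCAcgc
Nr4a2, chr2:57124120-57124149, minus strand: cgCGTCAcggagcccggccgggcTGACGgg
Nr4a3, chr4:48045084-48045113, plus strand: tcccatgtCGTCAcatTGACGtctcgcatt

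Counting from the start site, Srf held 2 CArG boxes that begin at -82 and -62. In Egr2 the printed box begins at -72 from start site 2, the windows of start sites 3, 4 and 5 held 1 box each, and that of start site 1 held none. A CArG box occurred in 482 of 32851 promoter windows of this length, or 1.47%. Each of the 3 NR4A windows held 4 copies of TGACG on either strand, and 0.137% of all windows held 4 or more. Srf held 1 copy and the windows of start sites 3, 4 and 5 of Egr2 held 2 each, while 17.8% of all windows held at least 1. The motif GCGNGGGCG, an EGR site, was matched once each in Nr4a1, Nr4a2 and Srf and in 4.70% of all windows. The windows of start sites 3, 4 and 5 of Egr2 overlap, and their box and TGACG copies are the same sites on the chromosome. Apart from these shared sites, none of the matches overlapped another. None of the 3 motifs was matched in the windows of Ier3 and Ier5. A match describes the letters and is not evidence of binding.

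Before the members are compared, the standing of single arrays has to be given. Il6, the cytokine interleukin-6, read 12.75, 12.33 and 10.32 in VILI PBEF+/-, 9.60, 9.84, 9.85 and 2.78 in VALI, 2.10, 2.56 and 10.87 in PBEF+/-, and 2.09 to 2.45 in Control. VALI replicate 4 thus stood with unventilated arrays and PBEF+/- replicate 3 with ventilated ones, against their labels. Each comparison was therefore run on all 14 arrays under their labels and a second time leaving this pair out. Calls from the second run are conditional on a choice made from array values. Xist, the transcript of the inactive X, was above the array median in all 3 VILI PBEF+/- arrays, 3 of 4 VALI, 2 of 3 PBEF+/- and 2 of 4 Control arrays. VALI replicate 4, PBEF+/- replicate 2 and Control replicates 1 and 4 were the Xist-low arrays. The second run therefore holds no Xist-low array in the ventilated groups but keeps those of PBEF+/- and Control. Ventilation and the Xist pattern are harder to tell apart in it. Alveolar type II markers, which mark lung tissue, had a mean log2 level over 5 genes of 13.51 to 14.11 on the arrays.

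On the main probe sets, all 10 genes had their highest array and their highest group mean in VILI PBEF+/-. Control had the lowest mean for 9 of them, and VALI for Nr4a2. The mean log2 distance of the 10 genes from the Control mean was 2.36, 2.24 and 1.59 in VILI PBEF+/-, 0.73, 1.02, 0.74 and 0.64 in VALI, and 0.55, 0.66 and 1.65 in PBEF+/-, while Control arrays lay at 0.35, -0.50, -0.37 and 0.52. Every array of the other 3 groups lay above all Control arrays on this mean. PBEF+/- replicate 3 lay between VILI PBEF+/- replicates 2 and 3, and VALI replicate 4 lay close to the other VALI arrays. In whole tissue, fewer cells of a type and less RNA per cell cannot be told apart.

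**Figure D1:**
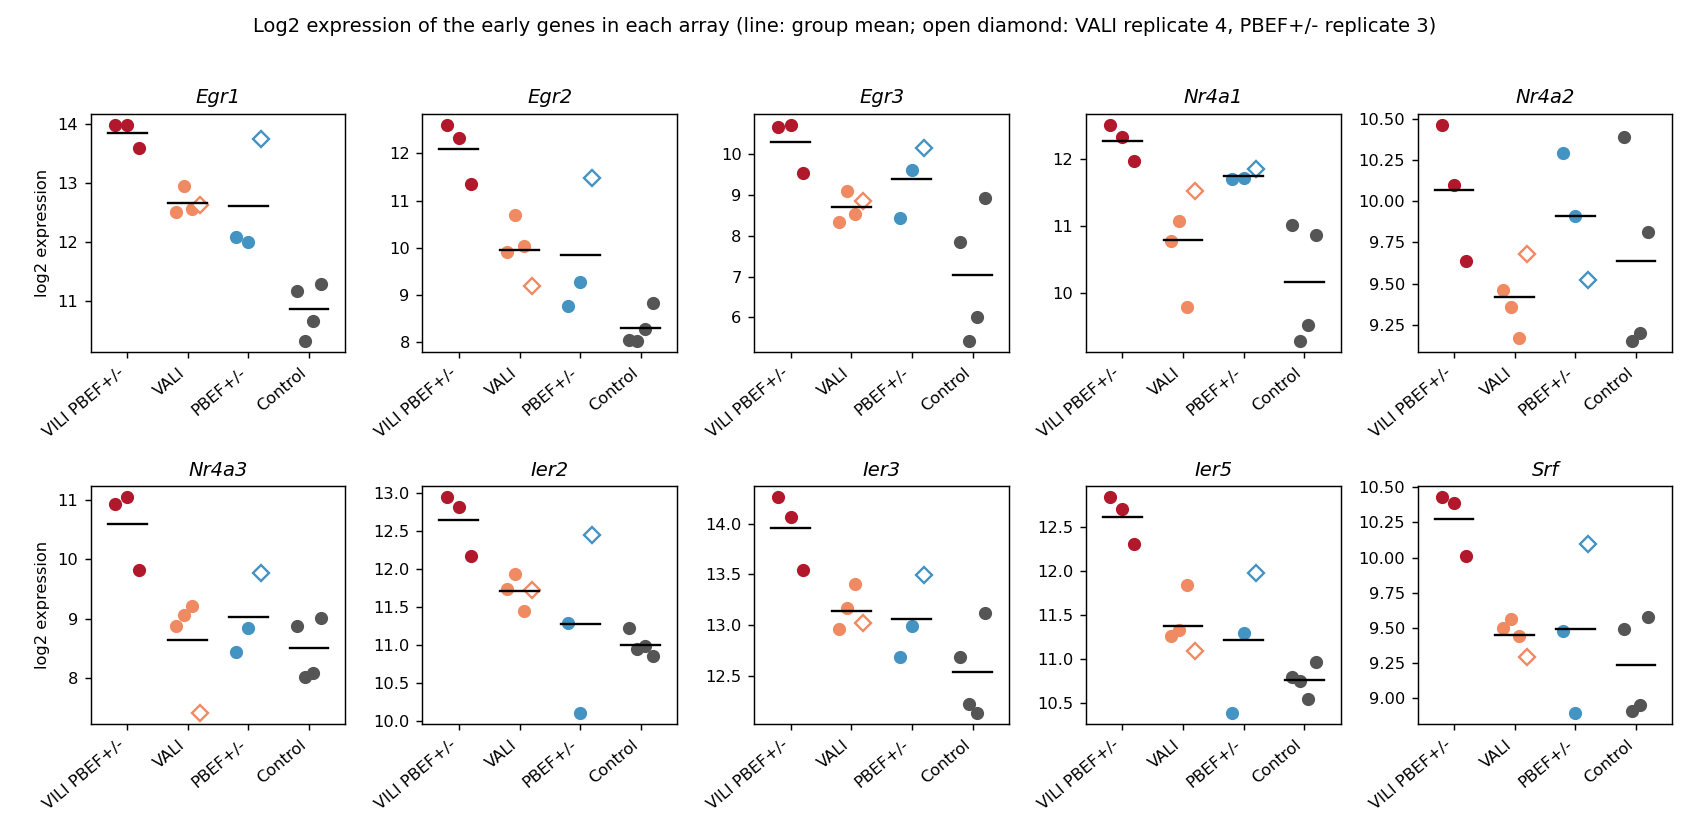
Log2 value of each of the 10 genes (vertical axis of each panel, main probe set) on the 14 arrays, by group on the horizontal axis, VILI PBEF+/- first; points are arrays, lines are group means and open diamonds are VALI replicate 4 and PBEF+/- replicate 3. The highest point of every panel is a VILI PBEF+/- array, and PBEF+/- is split by replicate 3 in most panels.

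Egr1, a zinc finger factor, separated Control from every other group. Its log2 values were 13.98, 13.98 and 13.59 in VILI PBEF+/-, 12.50, 12.94, 12.56 and 12.62 in VALI, 12.08, 12.00 and 13.75 in PBEF+/-, and 11.17, 10.31, 10.65 and 11.29 in Control. The lowest array of each other group lay above all 4 Control arrays, and VILI PBEF+/- overlapped only PBEF+/- replicate 3. Group means were ordered VILI PBEF+/- (13.85 ± 0.22, SD, n = 3), VALI (12.66 ± 0.20, n = 4), PBEF+/- (12.61 ± 0.99, n = 3) and Control (10.85 ± 0.46, n = 4). VALI and PBEF+/-, the neighbours in the middle, lay closer than the spread of PBEF+/-.

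Egr2, the EGR factor best known from myelinating Schwann cells, moved over a wider range. It read 12.60, 12.32 and 11.35 in VILI PBEF+/- and 9.90, 10.69, 10.04 and 9.18 in VALI. The unventilated groups read 8.77, 9.28 and 11.47 in PBEF+/- and 8.04, 8.01, 8.28 and 8.83 in Control. All VALI arrays were above all Control arrays, and PBEF+/- replicate 3 stood inside the VILI PBEF+/- range while the other PBEF+/- arrays stood near Control. The check probe set of Egr2 had the same order of means, 10.83 ± 0.52, 8.76 ± 0.57, 8.60 ± 1.78 and 6.54 ± 0.74 in VILI PBEF+/-, VALI, PBEF+/- and Control.

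Egr3, an EGR factor of muscle spindles and lymphocytes, was spread widely within Control. Its values were 10.68, 10.72 and 9.54 in VILI PBEF+/-, 8.34, 9.10, 8.53 and 8.86 in VALI, 8.44, 9.63 and 10.15 in PBEF+/-, and 7.86, 5.41, 6.01 and 8.93 in Control. Control replicates 1 and 4 reached the VALI or PBEF+/- values or came near them, whereas replicates 2 and 3 were far below. The other Egr3 probe set read about 1.03 or 1.04 in every group mean, below the array median, and holds no order.

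Nr4a1 encodes the nuclear receptor Nur77, which restrains inflammation in macrophages. It read 12.51, 12.33 and 11.97 in VILI PBEF+/-, 10.78, 11.08, 9.80 and 11.53 in VALI, 11.70, 11.72 and 11.85 in PBEF+/-, and 11.02, 9.28, 9.53 and 10.87 in Control. The 3 PBEF+/- arrays lay within a narrow band above every VALI and Control array, and PBEF+/- replicate 3 did not stand apart there as it did for Egr1 and Egr2. The order of means, VILI PBEF+/- (12.27 ± 0.28), PBEF+/- (11.75 ± 0.08), VALI (10.79 ± 0.73) and Control (10.17 ± 0.90), put the unventilated PBEF+/- lungs second. VALI and Control overlapped.

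Nr4a3, the receptor Nor1, reached its highest values in VILI PBEF+/-. Its values were 10.93, 11.04 and 9.82 in VILI PBEF+/-, 8.88, 9.06, 9.21 and 7.41 in VALI, 8.45, 8.85 and 9.77 in PBEF+/-, and 8.88, 8.03, 8.09 and 9.02 in Control. All VILI PBEF+/- arrays were above all the others, PBEF+/- replicate 3 came next to the lowest of them, and VALI replicate 4 was below every Control array. Nr4a2, the receptor Nurr1, hardly separated the groups, with means of 10.07 ± 0.41 in VILI PBEF+/-, 9.42 ± 0.21 in VALI, 9.91 ± 0.38 in PBEF+/- and 9.64 ± 0.59 in Control. Its 14 arrays spanned 9.15 to 10.46, and Control replicate 1 at 10.39 was the second highest. Of 6 Nr4a2 probe sets 4 exceeded the array median on some array, and the means of VALI were the lowest of the 4 groups on each of those. On a check probe set among them the highest array was Control replicate 1, at 9.73, above VILI PBEF+/- replicate 1 at 9.25.

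Ier2 and Ier5, which belong to one protein family, had the same order of group means. Ier2 read 12.94, 12.81 and 12.17 in VILI PBEF+/-, 11.73, 11.93, 11.44 and 11.72 in VALI, 11.29, 10.10 and 12.45 in PBEF+/-, and 11.22, 10.95, 10.98 and 10.85 in Control. Ier5 read 12.84, 12.70 and 12.31 in VILI PBEF+/-, 11.26, 11.33, 11.84 and 11.09 in VALI, 10.38, 11.30 and 11.98 in PBEF+/-, and 10.80, 10.75, 10.55 and 10.96 in Control. For both genes VALI lay above all Control arrays without overlap and below all VILI PBEF+/- arrays. PBEF+/- ranged from below the lowest Control array to values near or within VILI PBEF+/-.

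Ier3, also called IEX-1, showed smaller steps. Its values were 14.26, 14.06 and 13.54 in VILI PBEF+/-, 12.96, 13.17, 13.41 and 13.02 in VALI, 12.69, 12.99 and 13.49 in PBEF+/-, and 12.69, 12.22, 12.13 and 13.12 in Control. Only VILI PBEF+/- stood clear of the other groups, since Control replicate 4 reached into VALI. Srf read 10.43, 10.39 and 10.01 in VILI PBEF+/-, 9.50, 9.56, 9.44 and 9.29 in VALI, 9.48, 8.89 and 10.10 in PBEF+/-, and 9.49, 8.91, 8.95 and 9.58 in Control. VALI fell inside the Control range for Srf, and VILI PBEF+/- was above every array except PBEF+/- replicate 3. The other Srf probe set had means of 7.95 ± 0.05 in VILI PBEF+/-, 6.95 ± 0.06 in VALI, 6.87 ± 0.37 in PBEF+/- and 6.84 ± 0.21 in Control.

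**Figure D2:**
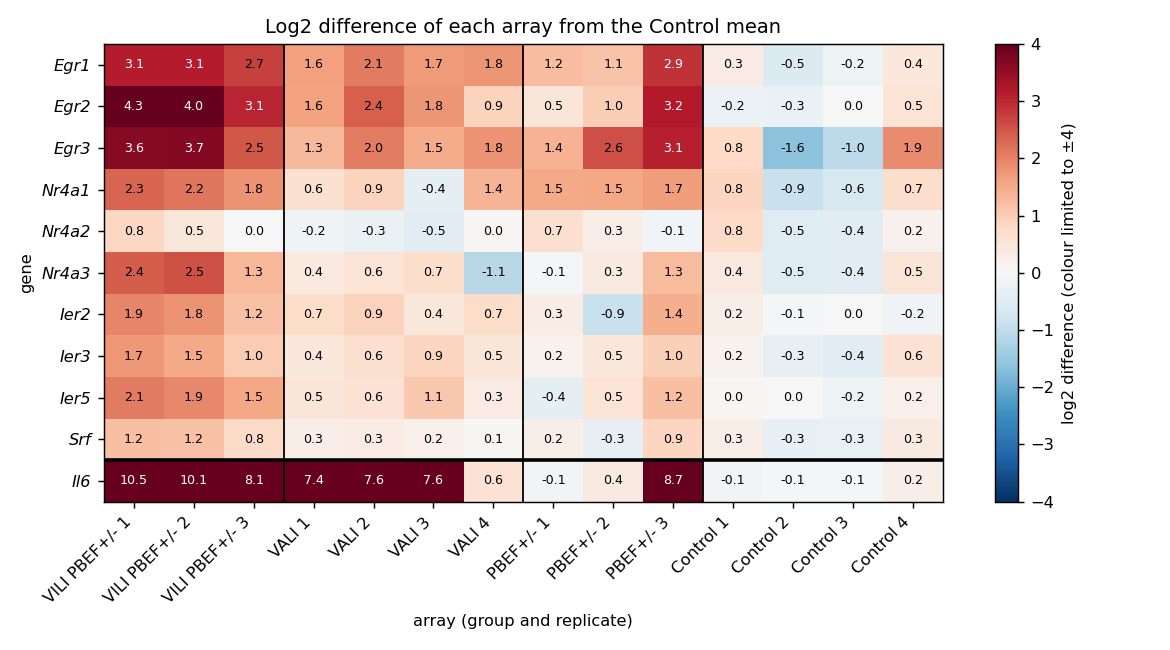
Log2 distance of each of the 10 genes, with Il6 below them (down the page), from its Control mean on each of the 14 arrays (across, VILI PBEF+/- first, Control last); colour and number give the distance, and the colour saturates at the ends of its scale. VILI PBEF+/- and PBEF+/- replicate 3 form the high columns, and Control replicates 2 and 3 the low ones.

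The Control arrays were not alike for these genes. Control replicates 1 and 4 were each the highest or second highest Control array for 9 of the 10 genes, replicate 3 for 2 and replicate 2 for 0. Replicates 1 and 4 were also the Xist-low Control arrays, with Xist at 2.55 and 2.56 against 13.73 and 13.33 in replicates 2 and 3. The part of this split in the comparisons with Control was not tested beyond a block on the Xist pattern. With that block on all 14 arrays, 0 members and 0 genes were called in VALI against Control and in PBEF+/- against Control. Both comparisons had 0 calls without the block as well, so these counts cannot show the part of the split.

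The comparison of both ventilated groups with both unventilated groups asks what mechanical ventilation changed in lungs of either label. Egr1, Egr2, Ier2, Ier3 and Ier5 rose in ventilated lungs, and Egr3, Nr4a1, Nr4a2, Nr4a3 and Srf did not pass the test. Egr2 rose by 1.96 ± 0.39 on the log2 scale (SE, 3.89-fold, limma adjusted p = 0.0289) and Egr1 by 1.52 ± 0.25 (2.87-fold, adjusted p = 0.028). Ier2 rose by 1.03 ± 0.28 (adjusted p = 0.0424), Ier5 by 1.01 ± 0.21 (adjusted p = 0.0302) and Ier3 by 0.75 ± 0.18 (adjusted p = 0.0361). These 5 of 10 stand beside 4.09% of all tested genes called higher, and 0 members were lower, beside 4.27% of all genes. Values for the others were 0.50 for Srf (adjusted p = 0.079), 0.85 for Nr4a3 and 1.28 for Egr3 (adjusted p = 0.103 for each), 0.57 for Nr4a1 (adjusted p = 0.221) and -0.03 for Nr4a2 (adjusted p = 0.929). The median log2 difference was 0.93 over the 10 genes and -0.05 over all tested genes. The groups overlapped for all 10, where 0.185% of genes had ventilated arrays wholly above the unventilated ones.

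On further probe sets, fitted with p-values adjusted over every probe set, the second Egr2 probe set rose by 2.22 ± 0.47 (adjusted p = 0.0358). The second Srf probe set was called too, at 0.59 ± 0.12 (adjusted p = 0.0343), unlike the main one. Of the 2 other Ier5 probe sets 1 was called (1.50 ± 0.28, adjusted p = 0.0331) and 1 was not (0.83 ± 0.28, adjusted p = 0.0802).

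These calls changed with the arrays kept. With 1 array left out at a time, the log2 difference was 1.37 to 1.81 for Egr1 and 1.69 to 2.37 for Egr2. It was 0.74 to 1.33 for Ier2, 0.65 to 0.86 for Ier3 and 0.80 to 1.20 for Ier5. No gene of any kind was called when Control replicate 2, VALI replicate 1, 2 or 3, PBEF+/- replicate 1 or 2, or VILI PBEF+/- replicate 1 or 2 was left out, each giving 0 members. Members called were 3 without Control replicate 1, 2 without Control replicate 3, 4 without Control replicate 4 and 7 without PBEF+/- replicate 3. Over all genes the 950 calls became 271, 154 and 160 without Control replicate 1, 3 and 4, 2698 without VALI replicate 4 and 3419 without PBEF+/- replicate 3. With the Xist pattern as a block 0 members and 0 genes were called, and with no filter on dim probe sets Egr1 alone was. Without VALI replicate 4 and PBEF+/- replicate 3 together, 7 members rose, where 14.9% of all genes were called higher, and 0 fell, where 24.6% were called lower. These were the 5 above, with Egr2 at 2.49 ± 0.24 and Egr1 at 1.81 ± 0.17, joined by Nr4a3 (1.25 ± 0.25, adjusted p = 0.00264) and Srf (0.68 ± 0.15, adjusted p = 0.00544).

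**Figure D3:**
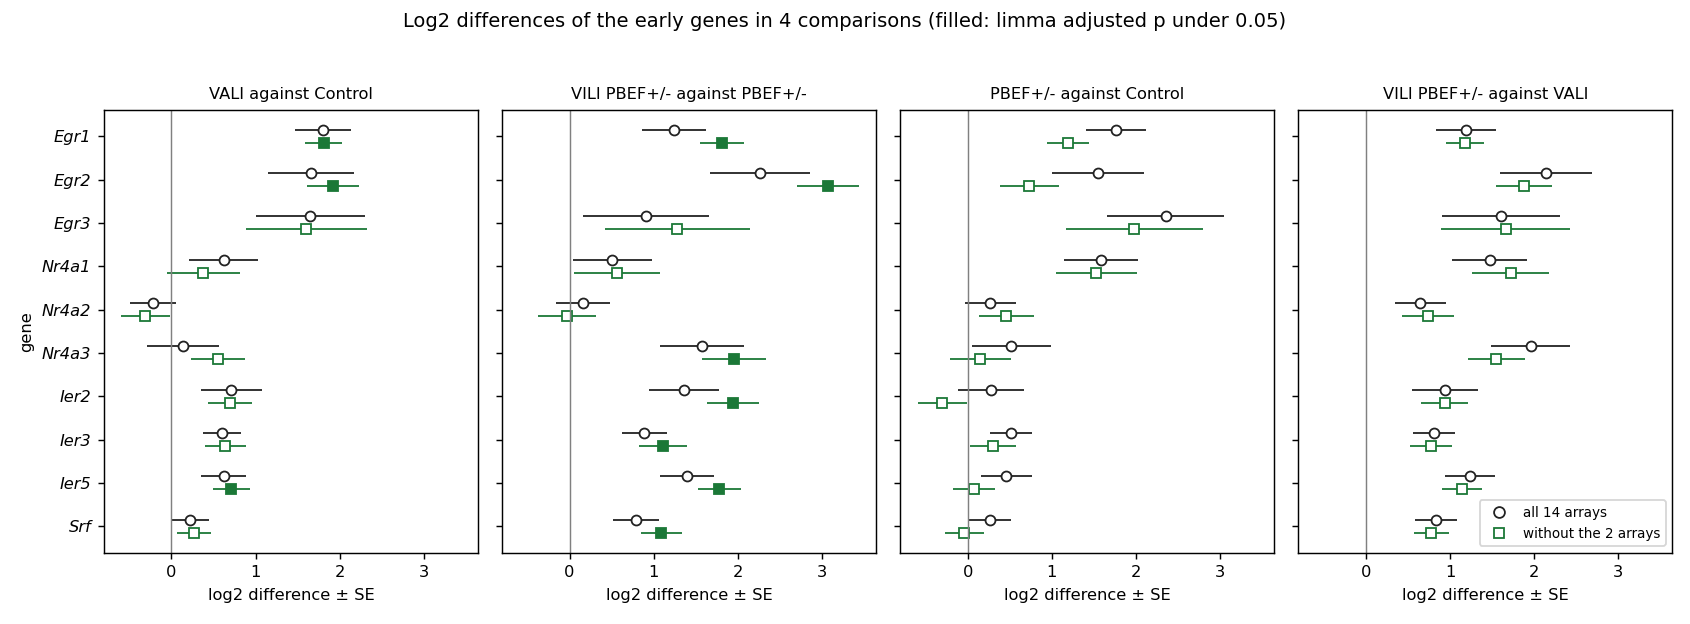
Log2 differences (horizontal axis) of the 10 genes (down the page) in the 4 comparisons of 2 groups, with all 14 arrays and without VALI replicate 4 and PBEF+/- replicate 3; bars are standard errors of the limma fit and filled marks passed it at an adjusted p under 0.05. Without the 2 arrays the differences of Egr1, Egr2, Ier2 and Ier5 in VILI PBEF+/- against PBEF+/- were larger and passed, while Nr4a2 lay near 0.

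VALI against Control gives the ventilation difference in lungs that carry no PBEF label. With all arrays limma called 0 of 11360 genes (0%), 2075 of them at an unadjusted p under 0.05, and 0 of the 10. Egr1 was 1.80 ± 0.33 higher on the log2 scale (adjusted p = 0.0809), Egr2 1.66 ± 0.51 (adjusted p = 0.156) and Egr3 1.65 ± 0.65 (adjusted p = 0.219). The 3 NR4A genes differed by 0.62 for Nr4a1, 0.14 for Nr4a3 and -0.22 for Nr4a2. Egr1, Egr2, Ier2 and Ier5 had every VALI array above every Control array, 4 of 10 genes beside 4.70% of all genes tested. Without the 2 arrays, Egr1 rose by 1.81 ± 0.22 (adjusted p = 3.66e-04), Egr2 by 1.92 ± 0.31 (adjusted p = 0.00237) and Ier5 by 0.71 ± 0.22 (adjusted p = 0.0455). These 3 of 10 stand beside 6.53% of all genes called higher. Leaving out VALI replicate 4 alone gave 1 member and 680 genes, and leaving out PBEF+/- replicate 3 alone gave 2 members and 288 genes. With the Xist block and without both, 5 members were called. Without Control replicate 2 alone Nr4a1 differed by 0.32 and Egr3 by 1.10, and without VALI replicate 3 alone Nr4a1 differed by 0.95.

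The comparison of PBEF+/- with Control asks what the PBEF label changed without ventilation. limma called 0 of 11360 genes (0%) with all arrays and without the 2, 938 and 1257 of them at an unadjusted p under 0.05. Egr3 was higher by 2.35 ± 0.70, Egr1 by 1.76 ± 0.36, Nr4a1 by 1.58 ± 0.44 and Egr2 by 1.55 ± 0.55, each with an adjusted p of 0.593. Egr1 and Nr4a1 had all PBEF+/- arrays above all Control arrays, 2 of 10 beside 1.38% of genes tested, and this also held without PBEF+/- replicate 3, beside 4.48%. Without it and VALI replicate 4, Nr4a1 kept a log2 difference of 1.53 ± 0.48 and Egr1 one of 1.19 ± 0.25 (adjusted p = 0.45 for both), while Egr2 was at 0.73 ± 0.35. Ier5 came to 0.08, and Ier2 at -0.30 and Srf at -0.04 turned below 0. The Xist block without the 2 arrays gave 0 members again.

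Ventilation within the PBEF label was read from VILI PBEF+/- against PBEF+/-. With all arrays 0 of 11360 genes were called (0%), 2355 at an unadjusted p under 0.05. Egr2 was 2.26 ± 0.59 higher, Nr4a3 1.57 ± 0.50, Ier5 1.40 ± 0.32, Ier2 1.36 ± 0.42 and Egr1 1.24 ± 0.38, with adjusted p from 0.127 for Egr2 and Ier5 to 0.157 for Nr4a3. For Nr4a1, Nr4a3, Ier3 and Ier5 the groups did not overlap, 4 of 10 beside 8.47% of all genes. With the 2 arrays left out 7 of 10 rose, beside 11.2% of all genes. Egr2 rose by 3.07 ± 0.37 (8.40-fold, adjusted p = 2.94e-04), Nr4a3 by 1.95 ± 0.38 (adjusted p = 0.00446) and Ier2 by 1.94 ± 0.31 (adjusted p = 0.00155). Egr1 (1.81 ± 0.26), Ier5 (1.78 ± 0.26), Ier3 (1.11 ± 0.28) and Srf (1.09 ± 0.24) rose as well, whereas Nr4a1 was at 0.56 ± 0.51 and Nr4a2 at -0.03 ± 0.34. The 7 calls were made too when PBEF+/- replicate 3 alone was left out, and only 2 PBEF+/- arrays then remain. Without PBEF+/- replicate 2 alone 0 members were called, and Ier2 differed by 0.77 and Srf by 0.49.

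VILI PBEF+/- against VALI sets the ventilated lungs with the PBEF label beside those without it. All 10 genes were higher in VILI PBEF+/-, and 9 of 10 did not overlap, all but Nr4a2, beside 4.67% of all genes tested. Egr2 was higher by 2.14 ± 0.55, Nr4a3 by 1.96 ± 0.47, Egr3 by 1.61 ± 0.70, Nr4a1 by 1.47 ± 0.44 and Ier5 by 1.24 ± 0.30. Egr1 differed by 1.19 ± 0.36, Ier2 by 0.94 ± 0.39, Srf by 0.83 ± 0.25, Ier3 by 0.81 ± 0.25 and Nr4a2 by 0.65 ± 0.30. None passed over all genes, with adjusted p between 0.33 and 0.475, and limma called 0 of 11360 genes (0%), 1191 of them and all 10 members at an unadjusted p under 0.05. Without the 2 arrays 13 genes (0.114%) were called and 0 members, with Egr2 at 1.88 ± 0.33 (adjusted p = 0.0825) and Egr1 at 1.18 ± 0.23 (adjusted p = 0.105). On the check probe sets in that setting, the second Srf probe set, whose group means are given above, and the further Ier5 probe set called for ventilation (1.70 ± 0.25) were called (adjusted p = 0.0385 for both). Of the 4 groups only VILI PBEF+/- held mice of 8 to 12 weeks.

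The interaction, the ventilation difference under the PBEF label minus that without it, called 0 of 11360 genes (0%) with all arrays, 634 at an unadjusted p under 0.05. Nr4a3 had the largest member value, 1.44 ± 0.66 (unadjusted p = 0.0496, adjusted p = 0.895). It called 0 genes again (0%) without the 2 arrays, with Nr4a3 at 1.40 ± 0.50, Ier2 at 1.24 ± 0.41, Egr2 at 1.15 ± 0.49 and Ier5 at 1.06 ± 0.34, and Ier2 and Ier5 had adjusted p = 0.407. The comparisons share arrays, so their values are not independent of one another.

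The 10 genes did not follow Il6 in the same way. VALI replicate 4, low for Il6, read above all Control arrays for 5 of the 10 genes, within them for 4 and below them for Nr4a3. Its Egr1 value of 12.62 lay among those of VALI replicates 1 to 3, at 12.50 to 12.94, while its Il6 value of 2.78 was far below theirs, at 9.60 to 9.85. PBEF+/- replicate 3, high for Il6, exceeded both other PBEF+/- arrays for 9 of the 10 genes and fell below them for Nr4a2. It lay within the VILI PBEF+/- range for 5 genes, Egr1, Egr2, Egr3, Ier2 and Srf, and below that range for 5.

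**Figure D4:**
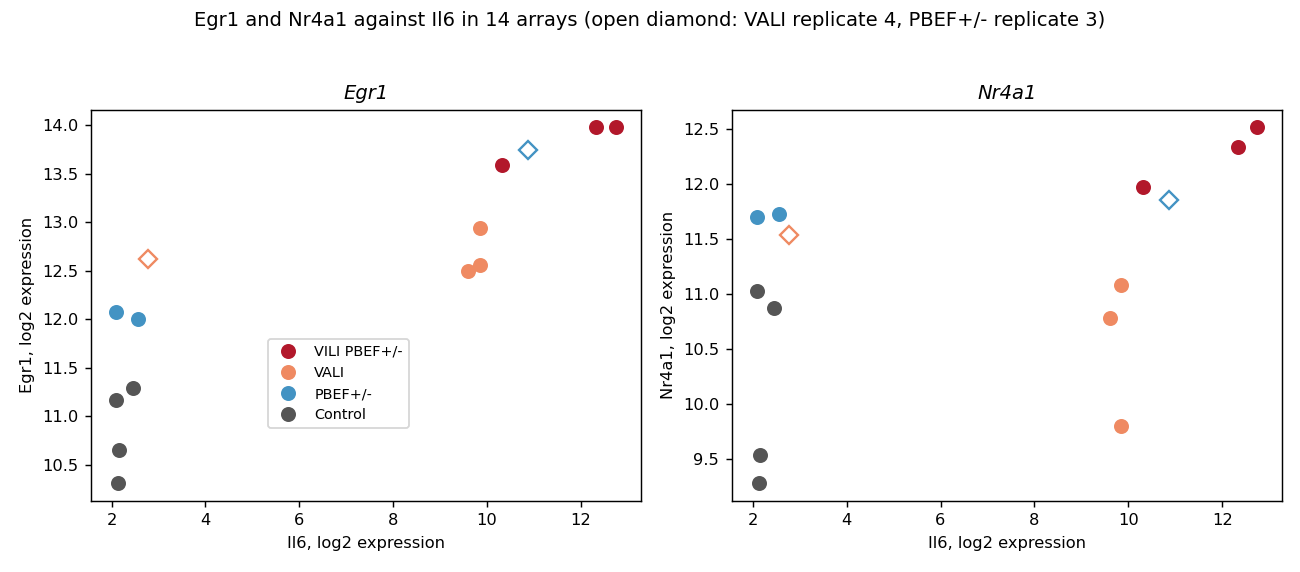
Log2 values of Egr1 and Nr4a1 (vertical axes) against log2 Il6 (horizontal axis) on the 14 arrays, coloured by group, with open diamonds for VALI replicate 4 and PBEF+/- replicate 3. VALI replicate 4 has the Il6 level of unventilated lungs beside an Egr1 value inside the VALI range, and PBEF+/- replicate 3 lies among ventilated arrays.

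Other immediate early genes rose in ventilated lungs in 16 of 30 tested members and fell in 1, beside 4.09% and 4.27% of all genes, with a median log2 difference of 0.76 beside -0.05 over all tested genes. Those with the smallest p were Ccn1, a matricellular growth signal (1.07 ± 0.19), Junb, an AP-1 subunit (2.25 ± 0.40), Ptgs2, the inducible cyclooxygenase (2.97 ± 0.53, adjusted p = 0.028 for these 3), and Fos, another AP-1 subunit (1.34 ± 0.26, adjusted p = 0.0287). The 1 that fell was Klf4, a zinc finger factor of endothelial quiescence (-0.61 ± 0.17, adjusted p = 0.0443), named after its value was seen. Fos read 14.27 to 14.42 in VILI PBEF+/-, 12.96 to 13.20 in VALI, 12.09 to 14.15 in PBEF+/- and 11.48 to 12.28 in Control, so VALI was clear of Control. In the fit without the 2 arrays 24 rose and 2 fell, beside 14.9% and 24.6% of all genes.

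The EGR corepressors Nab1 and Nab2, which bind EGR factors and dampen them, held 0 of 2 calls for ventilation, with Nab2 at 0.44 (adjusted p = 0.11). Nab2 read 9.73 to 10.42 in VILI PBEF+/-, 8.59 to 9.25 in VALI, 8.55 to 8.93 in PBEF+/- and 8.86 to 9.67 in Control, so VILI PBEF+/- stood above all other arrays. In VILI PBEF+/- against PBEF+/- Nab2 differed by 1.18 ± 0.27 with all arrays (adjusted p = 0.127) and rose by 1.25 ± 0.30 without the 2 (adjusted p = 0.0121). Of the 6 SRF partners Elk3, an ETS factor that can repress, fell (-0.61 ± 0.15, adjusted p = 0.0372), beside 4.27% of all genes called lower. The 5 others did not pass, Elk1 at -0.04 among them. The SRF targets of the cytoskeleton held 0 calls of 12, and without the 2 arrays Myh9, a nonmuscle myosin (0.65 ± 0.21), and Actg1, a cytoplasmic actin (0.13 ± 0.05), rose, a share near the 14.9% of all genes called higher there. None of 10 genes of the ERK and CREB pathway was called as labelled. Once the 2 arrays were left out, Crem, a CREB relative (1.34 ± 0.13), the stress kinase Mapkapk2 (0.59 ± 0.09) and the CREB coactivator Crtc2 (0.74 ± 0.19) rose, while Rps6ka5, the kinase MSK1 (-0.87 ± 0.18), and Creb1 (-0.39 ± 0.11) fell. These 3 and 2 of 10 stand beside 14.9% of all genes called higher and 24.6% called lower in that setting.

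Genes reported as EGR1 targets rose in 4 of 9 tested members, beside 4.09% of all genes, and fell in 0, beside 4.27%. They were the chemokine Ccl2 (3.22 ± 0.59, adjusted p = 0.028), the cytokine Il1b (2.54 ± 0.56, adjusted p = 0.0327), tissue factor F3, which starts coagulation (1.73 ± 0.41, adjusted p = 0.0362), and the leukocyte adhesion molecule Icam1 (0.34 ± 0.09, adjusted p = 0.0408). Ccl2 was below the array median on all 4 Control arrays. Il1b, Ccl2 and Icam1 are inflammatory genes as well, and other factors drive them too. Without the 2 arrays 5 rose, beside 14.9% of all genes, and 3 fell, near the share of 24.6% over all genes; the growth factors Pdgfa (-0.68 ± 0.17), Pdgfb (-0.51 ± 0.16) and Vegfa (-0.48 ± 0.09) were those that fell. NR4A partners and reported targets held 0 calls of 5. Without the 2 arrays 1 of 5 rose, the cell cycle inhibitor Cdkn1a (1.92 ± 0.60, adjusted p = 0.0259), a share near the 14.9% of all genes called higher there.

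**Figure D5:**
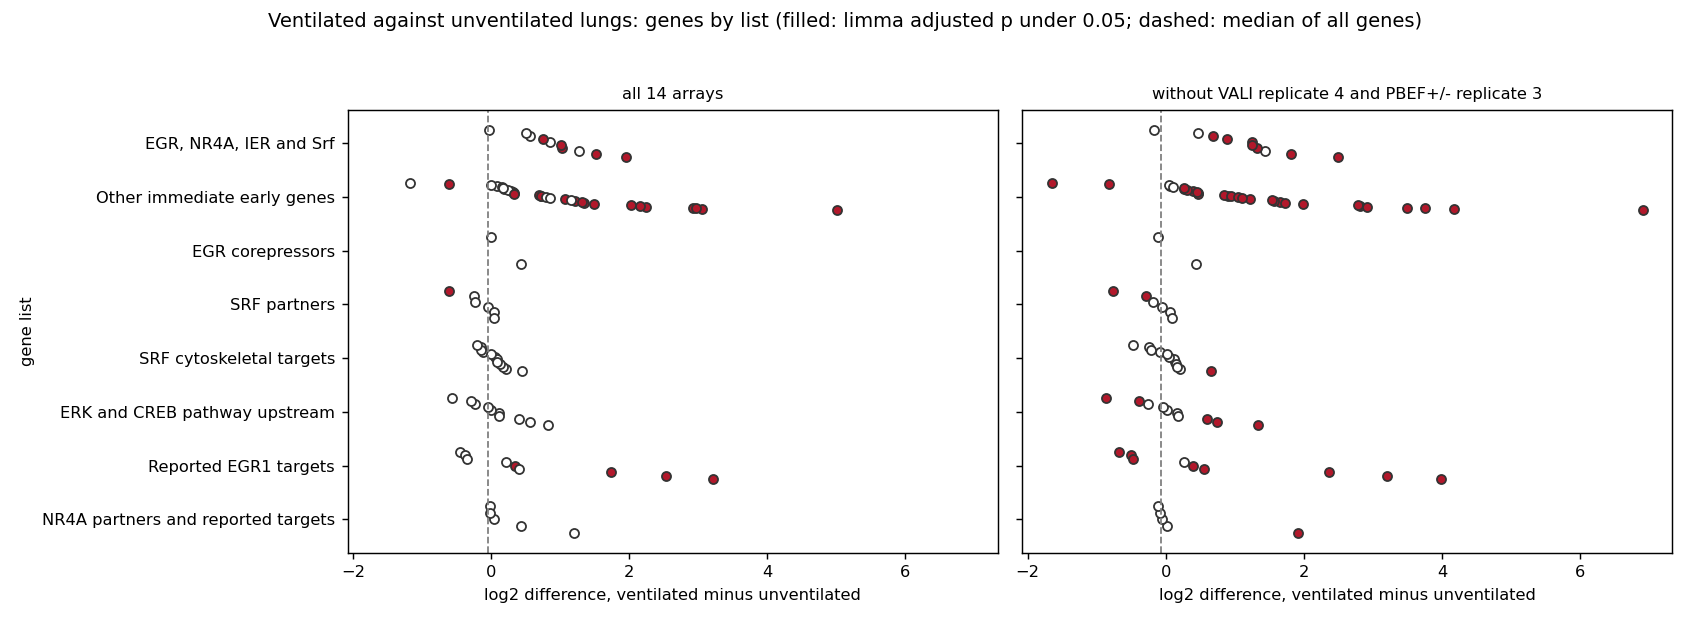
Log2 differences of ventilated minus unventilated groups (horizontal axis) for the tested genes of each list (down the page), with all 14 arrays in the left panel and without VALI replicate 4 and PBEF+/- replicate 3 in the right one; each point is 1 gene, filled points passed limma at an adjusted p under 0.05 and dashed lines are the median of all genes. On the left, 16 other immediate early genes and 4 reported EGR1 targets are filled and higher, and the SRF target genes lie around 0.

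Neutrophil markers moved with the same comparison. Of 8 tested, 5 rose as labelled (median log2 difference 2.12, beside 4.09% of all genes called higher) and 8 without the 2 arrays (3.04, beside 14.9%). Their mean log2 level over the 8 genes spanned 10.22 to 10.37 in VILI PBEF+/-, 6.37 to 10.32 in VALI, 6.07 to 10.05 in PBEF+/- and 5.82 to 6.92 in Control. VALI replicate 4 held the 6.37 and PBEF+/- replicate 3 the 10.05, as for Il6. Mmp8 and Clec4e, 2 of these markers, were above the array median on 0 of 4 Control arrays. The mean levels of VILI PBEF+/- and of VALI replicates 1 to 3 overlapped. Of the single markers, Clec4e (7.90 to 8.79 in VILI PBEF+/-, at most 7.72 in VALI) and Csf3r did not overlap there, and the rest did. The 10 early genes did not overlap between those arrays either, beside 5.99% of all genes. Club and ciliated markers fell in 4 of 5 genes, beside 4.27% of all genes called lower, with a mean log2 level of 12.49 to 12.76 in VILI PBEF+/-, 12.77 to 13.36 in VALI, 12.81 to 13.49 in PBEF+/- and 13.26 to 13.59 in Control. B cell markers held 0 calls of 4 as labelled (median -0.97), and 4 of 4 fell without the 2 arrays (median -1.44), beside 24.6% of all genes called lower. The B cell mean was 6.44 to 7.11 in VILI PBEF+/-, 6.87 to 9.32 in VALI, 7.43 to 8.71 in PBEF+/- and 7.73 to 8.44 in Control, and VALI replicate 4 held the 9.32. Macrophage and monocyte markers averaged 9.91 to 10.37 in VILI PBEF+/-, 10.16 to 11.12 in VALI, 9.80 to 10.18 in PBEF+/- and 9.10 to 9.99 in Control. On this mean every VALI array lay above every Control array. The single markers Cd14 and Mrc1 did so too, whereas Marco, Cd68, Chil3, Csf1r and Adgre1 overlapped. Of the macrophage and monocyte markers 1 of 7 rose with ventilation, beside 4.09% of all genes called higher with all arrays. That share is near the 14.9% of all genes called higher without the 2. Skeletal muscle markers had a mean of 13.05 and 13.86 in VALI replicates 1 and 4, beside 8.65 or less on all other arrays. Endothelial markers averaged 12.16 to 12.29 in VILI PBEF+/-, 12.11 to 12.42 in VALI and 12.28 to 12.44 in PBEF+/-. Control, at 12.50 to 12.69, lay above all of these arrays. The single markers Pecam1, Cdh5, Cldn5 and Vwf, however, overlapped between Control and each other group. The part of these cell types in the results was not tested.

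By Pearson correlation over the 14 arrays, the genes most like Egr1 were Ccn1 (r = 0.97), Rpl12 and Atf3 (0.95 each). Nr4a1 was matched most closely by Hivep3 and Ccn1 (r = 0.84 each) and Fosb (0.81). Lif and Sertad1 (r = 0.96 each) and Bhlhe40 (0.95) were nearest to Ier3, and Rela (0.97), Bcar1 (0.95) and Dot1l (0.94) to Srf. Fosb and Lif each fell to 3.17 on their lowest array, below the array medians, and Rpl12 spanned 5.30 to 7.89. The correlations are descriptions over arrays that share their groups.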

How the data were processed

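Log2 expression values per probe set were deposited by the authors for 45101 probe sets on 14 arrays. MAS5 and GCRMA are named, per the submitters' processing notes, with no version or role. Each array took labelled cRNA made from 6 µg of lung RNA, per the labels. Values spanned 0.446 to 16.1, array medians 4.60 to 4.75, and nothing was rescaled. The platform annotation gave 34958 probe sets 1 symbol, 932 several and 9211 none; 34754 Entrez identifiers matched RefSeq. A gene was tested if its probe set of highest mean exceeded the array median on 3 or more arrays.

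limma 3.58.1 under R 4.3.3 fitted 1 mean per group, and gene variances were moderated by empirical Bayes along a trend with level. Adjusted p-values are limma's, by Benjamini-Hochberg over 11360 genes, called under 0.05. Errors of differences are standard errors, and errors of means are standard deviations. Contrasts were the 4 group pairs given, both ventilated against both unventilated groups (means of the groups), and the interaction. The fit was also tested on data simulated with 200 changed genes. Figures were drawn with matplotlib 3.10.9.

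The members, gene lists and the 2 arrays left out were chosen with earlier results of these data known, and the block on the Xist pattern was added after its values were seen. Named genes are the members, Il6, up to 4 genes of each list by smallest p, and for 4 members the 3 genes of highest correlation; Klf4, Creb1, Elk1, Pdgfa, Pdgfb, Vegfa and the markers were named beyond this. The title numbers were not taken as pairs: deviations from group means correlated at -0.35 to 0.32 for 19 same-numbered pairs and -0.69 to 0.49 for 54 others.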

Additional observations from a re-analysis of the deposited data

How the results depend on the processing

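Of the single-member differences, 763 of 840 values with 1 array left out and 530 of 582 under the other alternatives kept their direction and their side of the threshold. Most of these differences were not called as labelled, so they kept their side by staying uncalled. The 5 called for ventilation kept theirs in fewer of the 14 fits with 1 array left out. Those were 6 for Egr1, 6 for Egr2, 5 for Ier5, 4 for Ier3 and 3 for Ier2. Leaving out VALI replicate 4 and PBEF+/- replicate 3 together gave 1933 called genes and 3 called members in VALI against Control, 3003 and 7 in VILI PBEF+/- against PBEF+/-, 13 genes in VILI PBEF+/- against VALI and 4485 genes in ventilated against unventilated groups. With the Xist pattern as a block as well, an alternative chosen after seeing the data, these were 1588 and 5, 2136 and 8, 13 genes, and 3123 genes with 9 members. The Xist block on all 14 arrays gave 0 genes and 0 members for ventilation and turned Nr4a2 to 0.11. Without the filter on dim probe sets, 99 genes and 1 member were called for ventilation. Fitting every probe set called 1 probe set in VILI PBEF+/- against PBEF+/- and 2 in VILI PBEF+/- against VALI, and another Nr4a2 probe set put the ventilation difference of Nr4a2 at 0.02. Without the 2 arrays, with and without the Xist block, PBEF+/- against Control turned to -0.30 for Ier2 and -0.04 for Srf, and the Nr4a1 interaction to 0.18; Nr4a2 turned to -0.03 in VILI PBEF+/- against PBEF+/- without the block and to 0.08 for ventilation with it. Leaving out 1 array at a time gave ranges of 0 to 680 genes and 0 to 2 members in VALI against Control, 0 to 2157 and 0 to 7 in VILI PBEF+/- against PBEF+/-, 0 to 9 genes in VILI PBEF+/- against VALI, and 0 to 3419 and 0 to 7 for ventilation. The log2 difference in those fits spanned -0.39 to 0.03 for Nr4a2 and -0.05 to 0.55 for Nr4a3 in VALI against Control, -0.30 to 0.87 for Ier2 and -0.04 to 0.56 for Srf in PBEF+/- against Control, -0.04 to 0.37 for Nr4a2 in VILI PBEF+/- against PBEF+/-, -0.13 to 0.10 for Nr4a2 in ventilation, and -0.87 to 0.01 for Egr1 and -0.44 to 0.19 for Nr4a1 in the interaction. With the replicate block, ventilation called 969 genes and 4 members, Ier2 being lost at 1.03 (limma adjusted p = 0.0568), and no other call of a member changed. The cause of these changes was not tested. Groups held 3 or 4 arrays, and PBEF+/- 2 without replicate 3. Probe sets below the array median hold no order.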

Other observations

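Fkbp5, a glucocorticoid-induced gene picked out after its values were seen, also divided the Control arrays along the Xist pattern. It read 13.28, 13.16 and 12.87 in VILI PBEF+/-, 13.19, 13.29, 13.10 and 10.09 in VALI, 10.42, 8.54 and 13.18 in PBEF+/-, and 9.97, 11.98, 12.04 and 8.72 in Control. Control replicates 1 and 4, which were the high Control arrays for most EGR, NR4A and IER genes, were the low ones for Fkbp5. VALI replicate 4 and PBEF+/- replicate 3 again stood apart from the rest of their groups.

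Within VALI, replicate 4 was the lowest array for Egr2, Nr4a3, Ier5 and Srf and the highest for Nr4a1 and Nr4a2. Its Nr4a3 value of 7.41 gave a Dixon ratio of 0.817, just under the critical value for 4 arrays.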
